A study of Mus musculus with 2 samples.

Results

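The proteasome genes described here are the 42 genes of the deposited table whose symbol starts with Psma, Psmb, Psmc, Psmd, Psmf or Psmg and a number, out of 16218 named genes. The 3 inducible catalytic subunits Psmb8, Psmb9 and Psmb10 were left out of that set by the same rule and serve as a comparison. The members fall into an alpha ring (8 genes), a beta ring (8), an ATPase ring (6), other base subunits (3), a lid (8), assembly chaperones (7) and 1 regulator, Psmf1. The last match, Psmc3ip, encodes a meiotic recombination protein that is not a proteasome subunit, so it was kept apart. The 42 genes lie on 16 chromosomes.

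Polyadenylated RNA was measured in bone marrow-derived macrophages of C57BL/6J mice. The WT library came from Lyz2-Cre cells, and the TKO library from cells that were mir-106a~363-/- and also mir-106b~25-/-, and that carried Lyz2-Cre with mir-17~92flox/flox, so Cre was present in both. Lyz2-Cre recombines in myeloid cells, which leaves mir-17~92 intact in other cells of a culture, whereas the other clusters were deleted in every cell. Marrow was grown for 5 days with 10% serum and 10% L929 supernatant, which supplies the growth factor of macrophages, and both cultures then received lipopolysaccharide (LPS) at 10 ng/ml for 3 h. No untreated library was analysed here, and sex, age and the number of animals are not in the labels. With 1 library per genotype there was no replicate check and no test, and genotype cannot be told apart from any other difference between the 2 cultures. Higher and lower therefore describe these 2 libraries.

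The proteasome is the main protease of the cytosol and nucleus, and it degrades proteins marked with ubiquitin chains. Its 20S core is a barrel of alpha rings, which form the gate, and beta rings, which carry the active sites. The 19S regulatory particle caps the barrel: an ATPase ring unfolds the substrate and threads it through the gate, scaffold subunits of the base bind ubiquitin and its carriers, and the lid removes the ubiquitin chain. In macrophages the core also produces peptides for presentation on MHC class I, and inflammatory signals replace the constitutive catalytic subunits with inducible ones. Subunits are made in fixed proportions, and the transcription factor Nfe2l1 is known to raise their genes together when the proteasome is impaired.

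The deleted clusters encode 4 families of microRNAs, grouped by their seed, the bases 2 to 8 that pair with target transcripts. The seed decides which transcripts a microRNA can bind, so 1 mature sequence of each family is shown, from the RefSeq table (GRCm38.p6), with the seed in capitals.
miR-17-5p: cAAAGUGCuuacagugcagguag
miR-18a-5p: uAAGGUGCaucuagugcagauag
miR-19a-3p: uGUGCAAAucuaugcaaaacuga
miR-92a-3p: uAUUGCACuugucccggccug
The first represents 6 microRNAs with that seed, the second 2, the third 2 and the last 3. In a transcript each family was searched for as the letters opposite its seed, on the transcribed strand only.

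Seed matches were rarer in the 3' UTRs of the proteasome genes than in those of other genes. The longest 3' UTR of the protein-coding transcripts was taken for each gene from GENCODE M21 (mm10). A match to at least 1 of the 4 seeds was found in 5 of 42 members (11.9%), against 3726 of 10868 measured genes with a UTR (34.3%). Their UTRs were also short, with a median of 312.5 bases (58 to 3321) against 1221 bases for measured genes, and 34 of the 42 were shorter than that gene median. By family, 1 member (2.38%) held a miR-17 match (GCACTTT) against 15% of genes, 2 (4.76%) a miR-18 match (GCACCTT) against 9.43%, 2 (4.76%) a miR-19 match (TTTGCAC) against 13.5%, and no member a miR-25 family match (GTGCAAT) against 7.69%. These shares describe letters in annotated UTRs, and the part of UTR length in them was not tested.

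The 5 matches are printed with the bases around them, 5' to 3' on the transcript strand, with the letters opposite the seed in capitals.
Psmf1, miR-17 family, chr2:151716740-151716769, minus strand: agtaaataaataGCACTTTataacctgttt
Psmd11, miR-18 family, chr11:80472828-80472857, plus strand: aggtaagcgcctGCACCTTtgctgtgccca
Psmd13, miR-18 family, chr7:140898303-140898332, plus strand: gcagaccctgccGCACCTTgcaaggcaatt
Psma2, miR-19 family, chr13:14626657-14626686, plus strand: ccaggtctcacaTTTGCACtacaggtgctt
Psmb11, miR-19 family, chr14:54628139-54628168, plus strand: tgagaggtaactTTTGCACaggcataagtg
The log2 ratio of TKO over WT was 0.11 for Psmf1, −0.09 for Psmd11, −0.14 for Psmd13, −0.03 for Psma2 and 0.48 for Psmb11. Of these 5, 2 were higher and 3 lower in the TKO library, and the counting interval of each included equality. For Psma2 the deposited gene length of 963 bases is shorter than the 2171-base UTR that holds the match, so the counted transcript model may lack it. For Psmd11 the deposited length was 1743 bases and the UTR 1539 bases. Whether the counted models of the members other than Psma2 hold their matches was not checked.

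The libraries had 10764519 (WT) and 10836855 (TKO) counts, and 11662 genes had a mean of at least 1 CPM (counts per 1000000 of the library total) and are called measured. The macrophage markers were all measured (9 of 9, 79419 against 81690 summed counts) with log2 ratios between −0.20 and 0.22. Of 10 stromal markers, 9 were measured and 6 were at least 1.5-fold lower in TKO, against 613 of 11662 measured genes. The 6 were Col1a1, Col1a2, Col3a1, Col5a1, Postn and Dcn. The other measured ones, Pdgfrb (478 and 510 counts), Thy1 (33 and 39) and Pdgfra (32 and 30), had counting intervals that included equality. All stromal markers summed to 430.2 CPM in WT and 171.6 CPM in TKO, and Lum was at 2 and 1 counts. Neutrophil markers summed to 72 and 64 counts, B cell markers to 15 and 11, and T and NK cell markers to 57 and 56. Dendritic cell markers summed to 409 and 2163 counts, of which Itgax, also made by macrophages, had 291 and 2019. The stromal and Itgax differences accompany every ratio below, and their part in them was not tested. In bulk RNA, fewer cells of a type and less RNA per cell cannot be told apart.

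Transcripts of the 26S particle as a whole took nearly the same share of both libraries. The 31 subunit genes without the tissue-restricted Psma8 and Psmb11 had 36209 counts in WT and 36508 in TKO, which is 0.336% and 0.337% of each library. The ratio of TKO to WT was 1.00, with a 95% counting interval of 0.987 to 1.02 (exact, conditional on the total). Such intervals cover counting error only, not differences between cultures. Scaling by TMM (trimmed mean of M-values), which moves the median log2 ratio of all measured genes from −0.0436 to 0.0031, gave a ratio of 1.04 (1.02 to 1.05).

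Single members stayed near that total. Of the 42, 41 were measured, and the exception was Psma8, the testis form of an alpha subunit, with 7 counts in WT and 12 in TKO. A member was called at 1.2-fold when its log2 ratio, with 0.5 CPM added to both levels, passed 1.2-fold and its interval excluded equality. Psma4 was the 1 member called higher, where 8.15% of measured genes were, and no member was called lower, where 13.5% were. Among the 2942 genes with mean levels in the range of the 26S subunits (49.99 to 279.5 CPM), 9.82% were called higher and 10.3% lower. No member passed 1.5-fold in either direction, against 8.09% of measured genes.

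The members divided evenly around equality. Log2 ratios were above 0 in 20 members and below in 21, where 42.6% of measured genes were above 0. With TMM scaling the split was 26 above and 15 below. The median log2 ratio was −0.0088, against −0.04 for all measured genes and −0.0060 for genes in the same CPM range, and it changed sign to 0.035 under TMM. Ratios within 1.1-fold of equality were found for 25 of the 31 subunits of the 26S particle (80.6%), against 1594 of 2942 genes (54.2%) in the same CPM range. The interquartile range of the log2 ratio over those 31 subunits was 0.17, against 0.25 for the genes of that range.

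**Figure D1:**
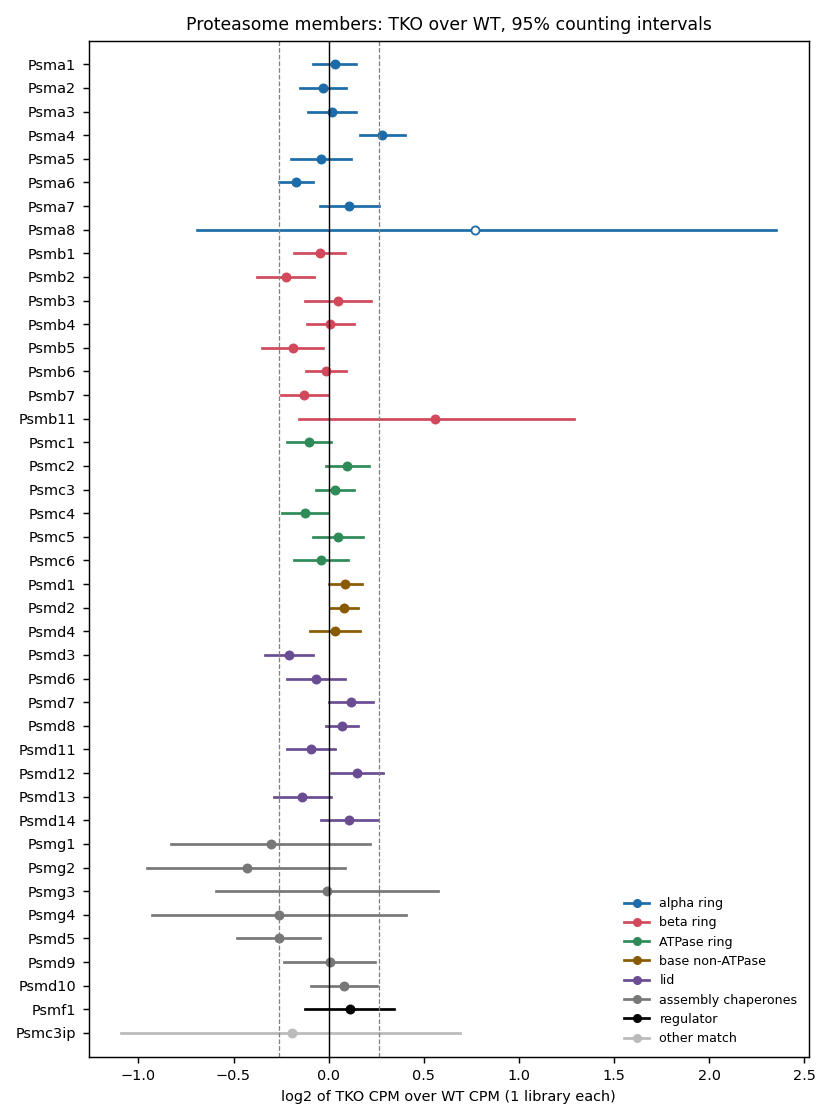
Log2 ratio of TKO over WT for each of the 42 members (CPM without addition, 1 library each), with 95% counting intervals, coloured by subcomplex. Dashed lines mark 1.2-fold, the open point is Psma8, which was not measured, and Psma4 is the 1 called member.

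The counting interval excluded equality for 12 of the 41 measured members, 5 of them higher and 7 lower. This happened for 34.3% of all measured genes and for 50.1% of genes in the CPM range of the subunits. The 5 higher members were Psma4, Psmd1, Psmd2, Psmd7 and Psmd12. The 7 lower ones were Psma6, Psmb2, Psmb5, Psmb7, Psmc4, Psmd3 and Psmd5. Under TMM scaling 9 members were higher and 3 lower (Psma6, Psmb2 and Psmd3), and 8 of the 12 were shared with the first count. The members gained under TMM were Psma7, Psmc2, Psmd8 and Psmd14, of which Psmc2 and Psmd8 were also gained under median-of-ratios and upper-quartile scaling.

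The authors' deposited table, whose comparison is also of these 2 libraries, gave 4 of the 41 measured members an adjusted value of at most 0.05, against 25.2% of measured genes. In the authors' deposited table Psma4 was higher, with an adjusted value of 1.92e-05. Psma6 (0.00146), Psmb2 (0.016) and Psmd3 (0.00743) were lower in the authors' deposited table. Of these genes, Psma4 and Psma6 sit in the alpha ring, Psmb2 in the beta ring and Psmd3 in the lid.

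Levels within the particle were compared by FPKM, which divides by gene length. Psma6 had the highest FPKM of the 31 subunits in both libraries (203.0 and 180.2), followed by the lid subunit Psmd8 (138.2 and 145.3) and the catalytic Psmb6 (131.0 and 129.8). Psma3 had the lowest FPKM in both (40.3 and 40.8). The highest level was thus 5.04 times the lowest in WT and 4.42 times in TKO, although each particle holds these proteins in equal number. The beta ring was the more even of the core rings, with 1.88 in WT and 2.00 in TKO. The ATPase ring spanned 1.83 and 1.92, and the lid 3.33 and 3.54.

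Levels were similar in both libraries. Log2 FPKM of the 31 subunits had a Pearson correlation of 0.978 and a Spearman correlation of 0.967 between WT and TKO, a description across genes that share annotation and length in both. Within groups the Spearman correlation was 0.964 over the 7 alpha genes and 0.893 over the 7 beta genes. It was 0.771 over the 6 ATPase genes, 0.714 over the 8 lid genes and 0.5 over the 3 other base genes. The Pearson correlation within groups lay between 0.955 (beta ring) and 0.996 (other base genes). Psma3 was divided by a gene length of 2374 bases, the longest of the alpha ring, and the deposited lengths of the 31 ranged from 731 to 3256 bases.

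**Figure D2:**
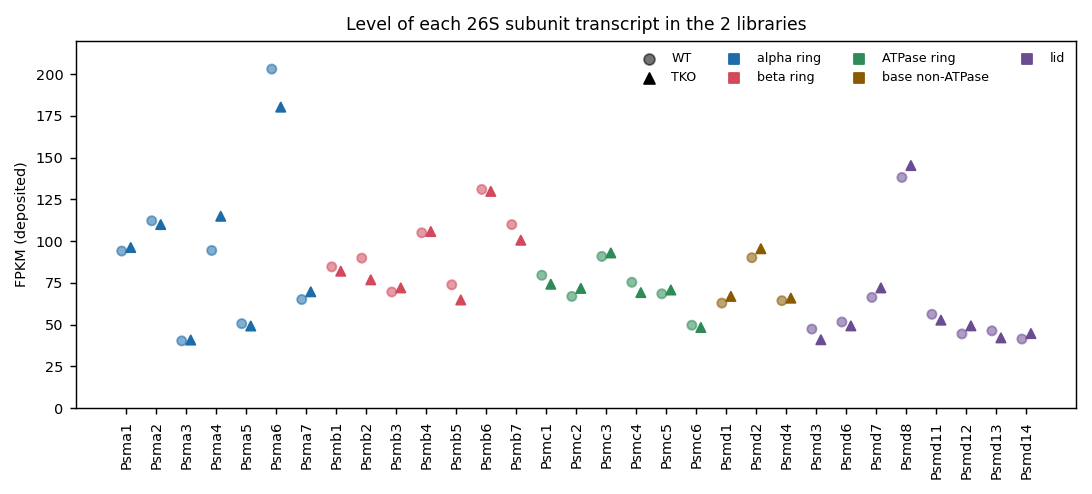
Deposited FPKM (linear axis from 0) of the 31 subunits of the 26S particle in WT (circles) and TKO (triangles), 1 library each. Psma6 is highest in both libraries and Psma3 lowest, and most pairs of points nearly coincide.

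The alpha ring held Psma4, the 1 called member, and Psma6, which had the opposite sign. Summed over 7 genes without Psma8 it had 7961 counts in WT and 8062 in TKO, a ratio of 1.01 (0.975 to 1.04), or 1.04 (1.01 to 1.07) under TMM. Psma4 (gene 26441, chromosome 9, 54950790 to 54958030, plus strand) encodes the alpha subunit whose tail helps to close the gate. Psma4 had 1095 counts in WT and 1341 in TKO, or 94.4 and 114.9 FPKM. It was 1.22-fold higher in TKO (1.12 to 1.32), a log2 ratio of 0.28 that lay between 0.28 and 0.33 under the other settings. An antisense gene that overlaps an exon of Psma4, AY074887, had 28 and 29 counts.

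Psma6 (gene 26443, chromosome 12, 55384222 to 55418454, plus strand) encodes another gate-ring subunit. It had 2134 counts in WT and 1907 in TKO, which is 1.13-fold lower in TKO (1.06 to 1.2) and a log2 ratio of −0.17. Within a library, where scaling cancels, the ratio of Psma4 to Psma6 FPKM was 0.465 in WT and 0.637 in TKO, a 1.37-fold difference (1.24 to 1.52). These genes are the highest and lowest of the ring, so their ratio restates that choice. The ratio of Psma4 to the summed other alpha genes differed 1.25-fold (1.15 to 1.37). Psma6 was the most abundant alpha transcript by FPKM in both libraries.

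The other alpha genes lay close to equality. Psma1 had 1255 and 1291 counts (log2 0.03), Psma2 1138 and 1122 (−0.03), and Psma3 1031 and 1051 (0.02). Psma5 had 654 and 640 counts (−0.04), and Psma7 654 and 710 (0.11). All 5 intervals included equality, the signs of Psma2 and Psma5 turned positive under TMM, and the interval of Psma7 then excluded equality. The median of the 7 measured alpha genes was 0.018.

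The beta ring was slightly lower in TKO by total count. Without Psmb11 its 7 genes had 6545 counts in WT and 6273 in TKO, which is 1.05-fold lower (1.01 to 1.09), which became 1.02-fold lower (0.981 to 1.05) under TMM. The ratio of alpha to beta counts, free of scaling, differed 1.06-fold (1.01 to 1.11) towards alpha in TKO. The beta sum in both comparisons includes Psmb7. Reads of Psmb7 over an exon stretch shared with the antisense gene Nek6, 2.93-fold lower in TKO, could not be told apart from Nek6 reads. Their part in these values was not tested. The median log2 ratio of the 8 measured beta genes was −0.030 and turned to 0.018 under TMM.

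The 3 constitutive catalytic subunits were examined next. Psmb5 (gene 19173, chromosome 14, 54614119 to 54618022, minus strand), the chymotrypsin-like subunit, had 675 counts in WT and 596 in TKO, which is 1.14-fold lower (1.02 to 1.28). The microRNA gene Mir686 overlaps Psmb5 on the same strand and was assigned 0 counts in WT and 8.24 in TKO, so a few Psmb5 reads may have been divided between them. Their TKO estimates sum to 604.0, still below the WT count.

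Psmb7 (gene 19177, chromosome 2, 38588036 to 38644087, minus strand), the trypsin-like subunit, had 1122 and 1033 counts, 1.09-fold lower (1.00 to 1.19, lower bound 1.0039). Psmb7 shares exon sequence with the antisense kinase gene Nek6, which had 844 counts in WT and 290 in TKO, which is 2.93-fold lower (2.56 to 3.36). The strand setting of the counting was not given, so reads of Psmb7 and Nek6 over that stretch cannot be told apart. Psmb6 (gene 19175, chromosome 11, 70525367 to 70527858, plus strand), the caspase-like subunit, had 1433 and 1429 counts, a 1.01-fold difference (0.938 to 1.09). The intervals of Psmb5 and Psmb7 thus excluded equality and that of Psmb6 did not, and under TMM neither Psmb5 nor Psmb7 had an interval apart from equality.

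Each catalytic subunit has an inducible counterpart, which was higher relative to it in TKO beyond counting error in 2 of the 3 pairs. Psmb10, which replaces Psmb7, had 1533 counts in WT and 2028 in TKO, which is 1.31-fold higher (1.23 to 1.41). Psmb8, which replaces Psmb5, had 1609 and 1700 counts (1.05-fold higher, 0.980 to 1.12), and Psmb9, which replaces Psmb6, had 431 and 460 (1.06-fold higher, 0.928 to 1.21). Of the inducible subunits, only Psmb10 was called at 1.2-fold.

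Ratios within each library are free of scaling. The FPKM of Psmb10 over Psmb7 was 1.03 in WT and 1.48 in TKO, a 1.44-fold difference (1.29 to 1.60). Reads of Psmb7 and Nek6 over their shared exon stretch could not be told apart, and their part in this ratio was not tested. Psmb8 over Psmb5 was 1.68 in WT and 2.01 in TKO, a 1.2-fold difference (1.05 to 1.37). Psmb9 over Psmb6 was 0.391 and 0.418, a 1.07-fold difference whose interval (0.918 to 1.25) included equality. Psmb8 transcripts thus outnumbered Psmb5 transcripts per length in both libraries, while Psmb9 stayed below Psmb6 in both. Over all 3 pairs the summed ratio, which includes Psmb7 and so has the same limit, went from 0.917 to 1.13, a 1.24-fold difference (1.16 to 1.32).

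**Figure D3:**
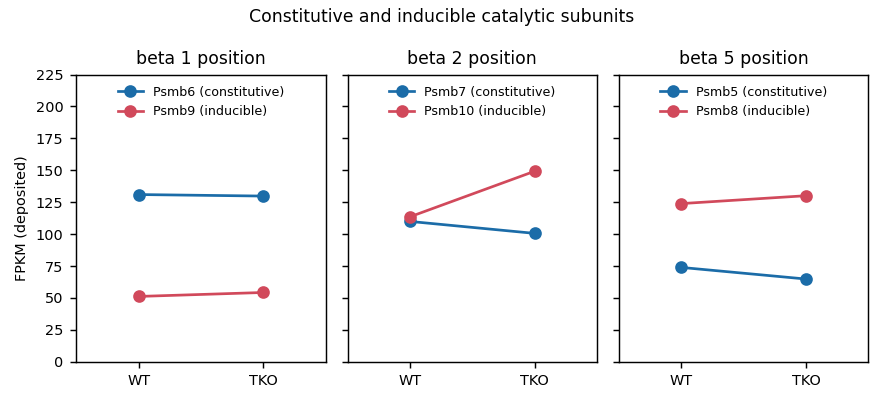
Deposited FPKM (linear axis from 0) of each constitutive catalytic subunit and its inducible counterpart in WT and TKO, 1 library each, joined by lines. Psmb10 separates from Psmb7 in TKO, Psmb8 lies above Psmb5 and Psmb9 below Psmb6 in both libraries.

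Among the structural beta genes Psmb2 was lower. Psmb2 (gene 26445, chromosome 4, 126677630 to 126709714, plus strand) had 811 counts in WT and 698 in TKO, which is 1.17-fold lower (1.06 to 1.3), a log2 ratio of −0.22. Psmb1 had 926 and 903 counts (−0.05), Psmb3 529 and 551 (0.05) and Psmb4 1049 and 1063 (0.01), all with intervals that included equality. Psmb11, the thymus-specific catalytic subunit, had 29 counts in WT and 43 in TKO, or 0.63 and 0.93 FPKM. Its ratio of 1.47 had an interval of 0.899 to 2.45, so a difference was not detectable at this depth. Psmb11 lies 3411 bases from Psmb5 and is transcribed from the other strand.

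The sum of the ATPase ring hardly differed. Its 6 genes had 7078 counts in WT and 7077 in TKO, a ratio of 0.993 (0.961 to 1.03), and a median log2 ratio of −0.0046 that turned to 0.043 under TMM. These ATPases pair in a fixed order around the ring and thread unfolded protein into the core. Psmc3, the most abundant by FPKM, had 1606 and 1653 counts, or 90.88 and 92.95 FPKM (log2 0.03). Psmc2 was the highest in ratio, with 1279 and 1379 counts (log2 0.10, 1.07-fold, 0.992 to 1.16). Psmc4 was the lowest, with 1155 and 1067 counts (1.09-fold lower, 1.00 to 1.19, lower bound 1.0019).

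The other ATPase genes were between these. Psmc1 had 1277 and 1198 counts (−0.10), Psmc5 930 and 967 (0.05) and Psmc6 831 and 813 (−0.04). Psmc3 shares exon sequence with the antisense zinc transporter gene Slc39a13, which had 526 and 529 counts. The spread of log2 ratios in this ring (SD 0.088 over 6 genes) was the smallest of the rings and the lid.

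The base subunits other than the ATPases had a slightly higher sum in TKO. Psmd1, Psmd2 and Psmd4 together had 6059 counts in WT and 6435 in TKO, which is 1.06-fold higher (1.02 to 1.09), or 1.09-fold (1.05 to 1.13) under TMM. Psmd2 (gene 21762, chromosome 16, 20651652 to 20663414, plus strand), a large scaffold that docks ubiquitin carriers, had 2923 counts in WT and 3116 in TKO. It was 1.06-fold higher (1.01 to 1.11) and had the most counts of any member. Psmd1 (gene 70247, chromosome 1, 86064387 to 86139151, plus strand), the related scaffold, had 2218 and 2374 counts, also 1.06-fold higher (1.00 to 1.13, lower bound 1.0030).

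Psmd4, a ubiquitin receptor, had 918 and 945 counts and 1.02-fold more in TKO (0.933 to 1.12). None of these 3 genes reached 1.2-fold, and the intervals of 2 excluded equality, which was so for 50.1% of genes in the CPM range. The median of 0.082 for this small group was the highest of the subcomplexes of the 26S particle.

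The lid contained genes with ratios on both sides of equality, and its sum differed little. Its 8 genes had 8566 counts in WT and 8661 in TKO, a ratio of 1.00 (0.975 to 1.03), or 1.04 (1.01 to 1.07) under TMM, and the median was 0.0026 with 4 genes above 0 and 4 below. Psmd3 (gene 22123, chromosome 11, 98682554 to 98695979, plus strand), a scaffold of the lid, had 1105 counts in WT and 962 in TKO. It was 1.16-fold lower (1.06 to 1.26), the lowest ratio of the lid at log2 −0.21. Psmd12, another scaffold of the lid, had the highest ratio, with 821 and 916 counts (1.11-fold higher, 1.01 to 1.22).

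Psmd14, the enzyme that cuts the ubiquitin chain off the substrate, and its inactive partner Psmd7 had ratios above 0. Psmd7 had 1147 and 1253 counts, 1.09-fold higher (1.00 to 1.18, lower bound 1.0008). Psmd14 had 691 and 750 counts, 1.08-fold higher, with an interval of 0.971 to 1.2 that included equality. Psmd8, the most abundant lid transcript, had 2257 and 2388 counts, 1.05-fold higher (0.992 to 1.11).

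The remaining lid scaffolds had ratios below 0, each with an interval that included equality. Psmd6 had 721 and 693 counts (−0.07), Psmd11 1050 and 991 (−0.09) and Psmd13 774 and 708 (−0.14). Psmd11 is known to limit how many 26S particles form, and it was 1.07-fold lower (0.977 to 1.16). Psmd13 shares exon sequence with the antisense gene Sirt3, which had 36 and 25 counts. Core and cap as wholes were close: the 20S genes had 14506 and 14335 counts and the 19S genes 21703 and 22173. The ratio of 20S to 19S differed by a factor of 0.967 (0.939 to 0.997). The 20S sum includes Psmb7, whose reads over the stretch shared with Nek6 could not be told apart from it. The part of that stretch in this ratio was not tested.

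The assembly chaperones help to build the rings and leave the finished particle. They were much less abundant than the subunits, at 4.97 to 37.0 FPKM over both libraries, and together had 1450 counts in WT and 1388 in TKO, which is 1.05-fold lower (0.976 to 1.13). Their median log2 ratio was −0.23, the lowest of the subcomplexes, with 5 of 7 below 0. Limiting the list to genes of at least 10 CPM leaves Psmd5, Psmd9 and Psmd10 and a median of 0.0052, so the low median came from thinly counted genes.

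The Psmg chaperones, which assemble the alpha ring as a pair of dimers, had few counts. Psmg1 had 71 counts in WT and 58 in TKO, and its dimer partner Psmg2 had 75 and 56. Psmg3 had 52 in each library and its partner Psmg4 had 44 and 37. Together the 4 genes had 242 and 203 counts, 1.2-fold lower (0.992 to 1.45), which at this depth was not separable from equality. The lowest of all log2 ratios was that of Psmg2 (−0.40), with an interval of 0.941 to 1.94 for its 1.35-fold lower level. Relative to the 20S genes they help to assemble, the Psmg sum differed by a factor of 0.849 (0.700 to 1.03).

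Of the base chaperones, Psmd5 was the 1 whose interval excluded equality. Psmd5 (gene 66998, chromosome 2, 34849734 to 34874968, minus strand) keeps base intermediates from joining the core too early. It had 378 counts in WT and 317 in TKO, or 17.0 and 14.2 FPKM, 1.2-fold lower (1.03 to 1.4). With 0.5 CPM added its log2 ratio of −0.26 fell just short of the 1.2-fold call, the nearest to it among members whose interval excluded equality, and its interval included equality under TMM. Psmd9 had 287 and 290 counts (0.01), and Psmd10, also known as the oncoprotein gankyrin, had the highest FPKM of the chaperones with 543 and 578 counts (log2 0.08).

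Psmf1, which binds the core and regulates it, had 289 WT and 314 TKO counts (1.08-fold higher, 0.917 to 1.27). Psmc3ip had 25 and 22 counts, and it shares exon sequence with the antisense gene Mlx, at 288 and 279. In all, 11 members share exon sequence with another gene, 7 of them with a gene of the table, and 4 members had a fractional count in either library, the mark of reads divided between genes.

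Genes that act with the proteasome were counted in the same way. From 5 lists that were not part of the rule, 47 genes were measured, of which 8 were called at least 1.2-fold higher and 3 lower, and 1 was at least 1.5-fold higher. Over all measured genes the shares were 8.15% higher, 13.5% lower and 8.09% past 1.5-fold either way. Inducible subunits and activators had 1 called higher each (of 3 and 5), regulators of subunit genes 3 higher and 2 lower of 17, ubiquitin genes and shuttles 3 higher and 1 lower of 14. None of the 8 other particle proteins and assembly factors was called. Whether these lists differed from the members was not tested.

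The activators are alternative caps that open the gate without ATP. Psme1 had 1769 counts in WT and 2021 in TKO, which is 1.13-fold higher (1.06 to 1.21), and its ring partner Psme2 had 2209 and 2391, 1.08-fold higher (1.01 to 1.14). Psme2b, chosen for naming after its value was seen, had 235 and 295 counts (1.25-fold higher, 1.05 to 1.49), but it is a near copy of Psme2 and reads may be divided between them. Psme4, a single-chain cap, had 1285 and 1424 counts, 1.1-fold higher (1.02 to 1.19). The nuclear cap Psme3 went the other way, with 1280 and 1204 counts (1.07-fold lower, 0.989 to 1.16).

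None of the other particle proteins was called. Pomp, the chaperone that completes the beta ring, had 843 and 867 counts (log2 0.03). Adrm1, a ubiquitin receptor of the base, had 1178 and 1169 (−0.02), and Shfm1, the small lid subunit also called Sem1, had 860 and 815 (−0.09). All 8 intervals in this list included equality.

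Transcripts of the factors Nfe2l1 and Nfe2l2 were higher in TKO, while the summed 26S genes had a ratio of 1.00 (0.987 to 1.02) by library total and 1.04 (1.02 to 1.05) under TMM. Nfe2l1 had 4429 counts in WT and 5691 in TKO, which is 1.28-fold higher (1.23 to 1.33), a change in transcript and not a measure of the processed factor. Nfe2l2, the oxidative stress factor, had 6103 and 8516 counts, 1.39-fold higher (1.34 to 1.43). The small Maf partners of these factors, named after their values were seen, did not share a direction: Mafg was 1.3-fold higher (1.14 to 1.49), Mafk 1.15-fold lower (1.03 to 1.28) and Maff 1.07-fold lower (0.876 to 1.3). In the same way Akirin2, which helps to import proteasomes into the nucleus, was 1.37-fold lower (1.17 to 1.60), with 384 and 283 counts. Stat3, chosen likewise, was 1.25-fold lower (1.19 to 1.32).

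Among the ubiquitin genes and shuttles, Ubb, a ubiquitin gene, had 8783 WT and 10004 TKO counts and was 1.13-fold higher (1.1 to 1.16). Sqstm1, an autophagy receptor for ubiquitinated cargo, had 28695 and 44801 counts and was 1.55-fold higher (1.53 to 1.57), the 1 gene of these lists past 1.5-fold. The ubiquitin-activating enzyme Uba6, named after its value was seen, was 1.33-fold higher (1.19 to 1.49).

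**Figure D4:**
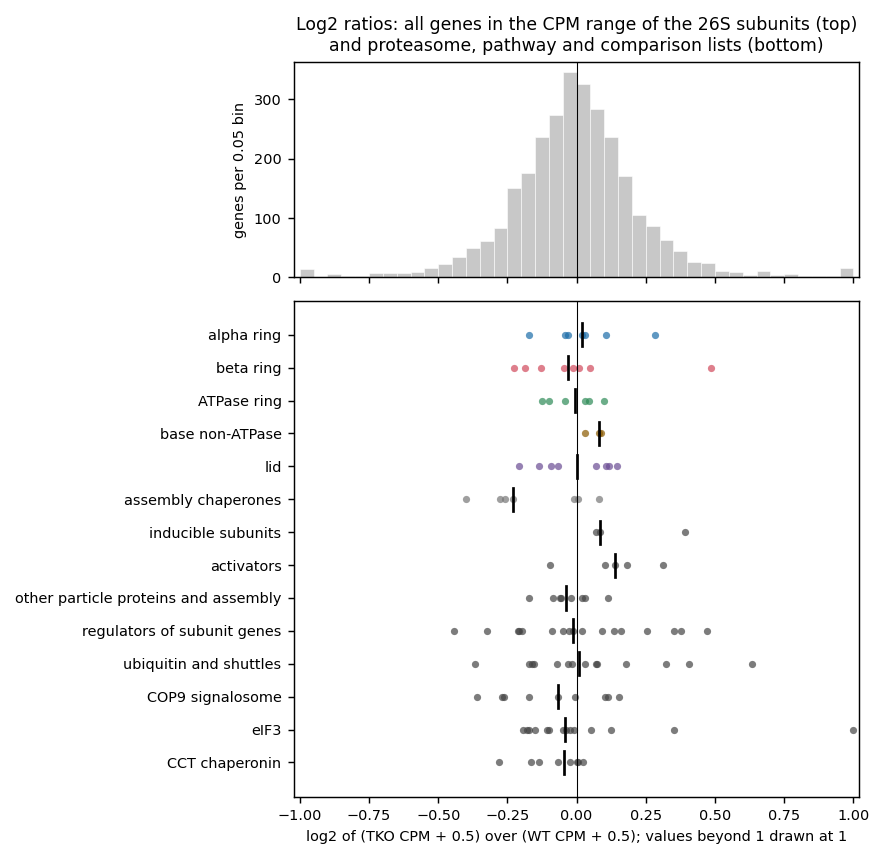
Top, log2 ratios (TKO over WT, 0.5 CPM added) of the 2942 genes in the CPM range of the 26S subunits, in bins of 0.05. Bottom, each measured gene of the member, pathway and comparison lists as a point with the list median as a bar, values beyond 1 drawn at 1. Core, ATPase, base and lid genes other than Psmb11 and Psma4 lie within 0.25 of 0.

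Other complexes with related subunits or similar size were set beside the proteasome, with 8.15% of all measured genes called higher and 13.5% lower as the background. The COP9 signalosome, whose subunits resemble those of the lid, had 2 of 9 genes called lower (Cops6 and Cops7b), a median of −0.07 and an interquartile range of 0.37. The translation factor eIF3 had 2 of 14 called higher. These were Eif3a at 1.28-fold (1.23 to 1.33) and the duplicated gene Eif3j2, with 0 counts in WT and 34 in TKO. The copy Eif3j1 had 733 counts in WT and 685 in TKO. Both copies had fractional estimates in TKO (33.51 and 685.49), so reads may be divided between them. The median of eIF3 was −0.04 and its interquartile range 0.18. The CCT chaperonin had 1 of 8 called lower, Tcp1 at 1.21-fold (1.14 to 1.29), a median of −0.05 and an interquartile range of 0.14. The interquartile range of the 31 subunits of the 26S particle was 0.17, within the range of these complexes, and differences between the lists were not tested.

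Nfe2l1 and Nfe2l2 act through antioxidant response elements, so the promoters of the members were searched for the core letters TGANNNNGC on both strands. RefSeq promoters (GRCm38.p6, 250 bases before to 50 after each start) were found for 34 of 42 members, and 20 of these (58.8%) held the letters. They were found for 48.1% of measured genes with a promoter and for 41.3% of all 32851 promoters, so the motif is common by its length. The median log2 ratio was −0.0042 for the 20 members with a match and 0.025 for the others. CCAAT, the box bound by NF-Y, was found in 13 members (38.2%) against 43.1% of measured genes.

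Further motifs were chosen after values were seen. CGGAAG, the core of Ets family sites, was found on either strand in 21 of 34 members (61.8%) against 36.2% of measured genes, with a median of 0.0094 for those with a match and 0.0052 for the others. GGGCGG, the GC box, was found in 19 (55.9%) against 68.4%. Matches of different motifs may overlap, and they are letters only, which do not show binding.

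The promoters of Psma4 and Psma6 are shown because these genes of one ring had opposite signs and both hold TGANNNNGC, in capitals. Psma6 has more than 1 annotated start, and the stretch before the GC-rich one is given, where the letters lie on the reverse strand.
Psma4, chr9:54950682-54950781, plus strand, match from base −127 of the start: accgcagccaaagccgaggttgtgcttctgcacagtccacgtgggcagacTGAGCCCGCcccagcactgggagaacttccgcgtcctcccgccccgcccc
Psma6, chr12:55398683-55398782, plus strand, match from base −92 of the start: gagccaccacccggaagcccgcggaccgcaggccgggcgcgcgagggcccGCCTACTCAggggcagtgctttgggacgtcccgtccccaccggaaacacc
Both windows lie before the RefSeq start used, and the Psma6 window lies inside the gene span given above, which begins at an earlier start. The pair was chosen for these features, so nothing about the motif follows from it.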

How the data were processed

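Estimated counts and FPKM values for 16219 gene entries were deposited by the authors for the 2 libraries. Per the submitters' processing notes, RSEM 1.2.12, Bowtie2 2.2.5, HISAT2 2.0.4 and the mm10 build were used. What each did, the strand setting, the annotation and any read filters are not given in the sources used here. FPKM of 0.01 stands for 0 in the deposited table. The authors deposited a log2 ratio, which equals the log2 of TKO FPKM over WT FPKM, a p-value and an adjusted value, which reaches 1.04 and was therefore handled as a score. No source used here names the test. The gene length column deposited by the authors is in bases.

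The estimated counts (79.2% whole in WT, 79.4% in TKO) were rounded. The 1 entry without a symbol, with 1 count per library (9.29e-06% in WT and 9.23e-06% in TKO), was left out. CPM used the library totals, and 3 counts correspond to 0.279 CPM in WT and 0.277 in TKO. Intervals are 95% exact Clopper-Pearson intervals of the conditional binomial, and cover counting error only because PCR reads without molecular identifiers are not independent molecules. Ratios within a library used the conditional odds ratio. The interval script was tested on simulated data. Calculations used Python 3.11.15, SciPy 1.17.1, pandas 2.3.3 and, for the TMM and upper-quartile factors, edgeR 4.0.16 in R 4.3.3. Alternatives were TMM, median-of-ratios and upper-quartile scaling, FPKM, unrounded counts, other additions to CPM and other filters.

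Every member could be named. Full values were given for the catalytic subunits, for the highest, lowest and most abundant gene of each subcomplex, and for called genes. Of the pathway lists, a fixed set of names and genes called at 1.5-fold were given, and others are named in the text as chosen after their values were seen. Some genes of these lists are not reported here. The members and lists were chosen with earlier results of these data known.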

Additional observations from a re-analysis of the deposited data

How the results depend on the processing

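The median log2 ratio of the base scaffolds (0.082) was 0.130 under TMM, 0.118 under median-of-ratios and 0.116 under upper-quartile scaling. Scaling moved all genes alike: the median of measured genes went from −0.0436 to 0.0031 under TMM. The sign changed for 6 members under TMM and for 3 under each of the other scalings, and for none under the other settings run. All 363 recomputed member values stayed within their counting interval. Those from the filter settings could not do otherwise or change sign, because a filter leaves the ratio of each member as it was. The counts of 1 member called higher and 0 lower were the same under each setting run. Intervals apart from equality numbered 12 under TMM (8 shared with the first 12) and 11 under each of the other scalings (9 shared). No paired analysis was possible because each group had 1 library. Depth limited the Psmg chaperones, Psmb11, Psma8 and Psmc3ip, which had at most 75 counts each.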
